A study of Mus musculus with 4 samples.

Results

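Axon guidance genes of the ephrin, Slit-Robo and netrin families were described in cells sorted from the adult mouse retina, with most attention to retinal ganglion cells (RGCs), the neurons whose axons form the optic nerve. Members were all genes of the deposited table whose symbols begin with Epha, Ephb, Efna, Efnb, Robo, Slit or Unc5, plus Ntn1, Ntn4, Dcc and Neo1, without the unrelated Slitrk genes. This gave 39 of the 27999 genes: 9 EphA and 5 EphB receptors, 5 ephrin-A and 3 ephrin-B ligands, 3 Slit ligands, 4 Robo receptors, 2 netrin ligands and 6 netrin receptors. The remaining 2, Unc50 and Unc5cl, match the prefix by name and are not netrin receptors. All 39 were protein-coding genes in the GENCODE M21 annotation of GRCm38, the assembly also called mm10.

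Eph receptors are receptor tyrosine kinases on the growing axon, and ephrins are their membrane-bound ligands on the cells it meets. EphA receptors mainly bind ephrin-A ligands, which are held by a lipid anchor, and EphB receptors mainly bind ephrin-B ligands, which span the membrane. In the developing visual system, graded EphA and EphB levels across the retina guide RGC axons to their map positions in the brain, and Ephb1 takes part in sending ventrotemporal axons to the same side at the optic chiasm. Slits are secreted repellents read by Robo receptors, and they channel RGC axons towards the optic nerve and through the chiasm. Netrin-1 is a secreted cue at the optic disc that attracts axons through Dcc and repels them through Unc5 receptors.

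The study's labels describe 4 retinas from C57BL/6 mice aged 3 months, in 1 group with no treatment named. The retinas were dissociated and cells carrying GFP under a Brn3b (Pou4f2) reporter were enriched by sorting. Brn3b is a POU-domain transcription factor of a large subset of RGCs, so the sort selects for cells that carry the reporter and the shares of classes are not those of the retina. Transcripts were counted with 10x Chromium version 2 chemistry, a 3′ method that tags each captured molecule with a unique molecular identifier (UMI).

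All 3237 barcodes carried 1 suffix and none was tied to a retina, so the data form 1 pooled sample with no replicates. No p-value is therefore given, and every interval is a 95% interval that covers counting error only. After filtering, 2636 cells and 27781237 UMIs remained. RGCs were cells with 1 or more UMIs of Slc17a6 (the vesicular glutamate transporter VGLUT2), 3 or more of Slc17a6 plus the RNA-binding protein gene Rbpms, and at most 1 of the horizontal cell factor Lhx1. The rule found 918 cells, 34.8% of those kept (33.0% to 36.7%, exact binomial), of which 915 lay in RGC-like clusters, 2 in an endothelial-like and 1 in a microglia-like cluster. All 14 genes of an RGC marker list, among them Pou4f2 at 84.1 CPM (UMIs per 1000000 UMIs of the same cells), were higher in these cells than in any other class. The list includes Slc17a6 and Rbpms, which the rule itself uses, and Pou4f2, the gene of the sorted reporter. These 3 are therefore no separate support for the rule. The deepest group was the RGCs, with a median of 15843 UMIs per cell (3397 to 53709), against medians of 3770.5 to 10987 in the other classes. Markers of other classes were low but not at 0 in RGCs: 10 rod markers summed to 827 CPM in RGCs and 128237 CPM in rod-like cells, and 12 Müller glia markers to 476 and 42450 CPM. The lists nearest to their own class were 12 amacrine markers, at 521 and 6056 CPM, and 10 horizontal cell markers, at 714 and 15123 CPM. The part of such RNA in the guidance levels was not tested. The sort also carried 577 horizontal-like, 382 bipolar-like, 238 Müller glia-like, 161 microglia- or macrophage-like, 133 amacrine-like, 98 cone-like, 44 rod-like and 10 endothelial-like cells, which serve here for comparison.

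The promoters of 3 members on which the comparison of kinds of RGC turns are shown first. They are the 300 bases from 250 before to 50 after the gene's start, 5′ to 3′, from RefSeq on GRCm38.p6, and entries matched for 3 of the 4 genes sought (Slit2, Ephb1, Unc5a and Unc5d). Capitals mark a match to 1 of 4 motifs searched on both strands: ATTAAT, a core bound by POU-homeodomain factors; AGGTGTGA, a T-box site; TATAAA, the TATA box; and CACCTG, an E-box.
Slit2, chr5:47982905-47983204, plus strand: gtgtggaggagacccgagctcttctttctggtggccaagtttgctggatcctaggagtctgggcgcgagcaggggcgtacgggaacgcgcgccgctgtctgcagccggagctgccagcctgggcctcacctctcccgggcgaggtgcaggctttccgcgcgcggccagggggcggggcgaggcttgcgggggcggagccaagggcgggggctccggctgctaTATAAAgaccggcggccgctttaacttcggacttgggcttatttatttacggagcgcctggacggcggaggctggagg
Ephb1, chr9:102354644-102354943, minus strand: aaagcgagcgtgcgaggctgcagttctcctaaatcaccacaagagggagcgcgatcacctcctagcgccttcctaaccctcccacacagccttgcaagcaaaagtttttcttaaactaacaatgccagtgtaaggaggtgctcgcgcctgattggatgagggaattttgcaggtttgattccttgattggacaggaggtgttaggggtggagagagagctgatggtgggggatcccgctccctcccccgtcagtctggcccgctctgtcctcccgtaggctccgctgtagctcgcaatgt
Unc5a, chr13:54949161-54949460, plus strand: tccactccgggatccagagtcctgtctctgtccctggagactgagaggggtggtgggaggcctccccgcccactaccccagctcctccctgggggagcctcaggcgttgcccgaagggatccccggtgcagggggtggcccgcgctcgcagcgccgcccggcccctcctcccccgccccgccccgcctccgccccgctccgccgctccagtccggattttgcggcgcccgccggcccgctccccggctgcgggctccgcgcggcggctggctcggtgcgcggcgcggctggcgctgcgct
The Slit2 window holds a TATAAA, which 13.6% of the 32851 promoter windows of the table hold on either strand. The Ephb1 and Unc5a windows hold none of the 4 motifs, and the shares of windows that hold the other motifs are 4.75% for ATTAAT, 1.28% for AGGTGTGA and 20.2% for CACCTG. The 3 windows have 30, 14 and 37 CpG dinucleotides, in the order shown, against a median of 7 over all windows, and their GC contents are 68%, 55.7% and 78.3%. A match describes the letters only and says nothing of binding.

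In RGCs, 23 of the 39 members had 50 or more UMIs in all, 14 had 1 to 49, and Epha1 and Unc5cl had none, which allows up to 0.193 CPM at 3 counts. The most abundant members were Epha5 and Robo2, an EphA receptor and a Slit receptor, at 194 CPM (187 to 201, exact Poisson) and 117 CPM (112 to 123). In all, 18 members reached 10 CPM, as did 8499 of all genes. Because the chemistry counts each molecule once at its 3′ end, the levels are not scaled by gene length, and capture may still differ between transcripts.

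**Figure D1:**
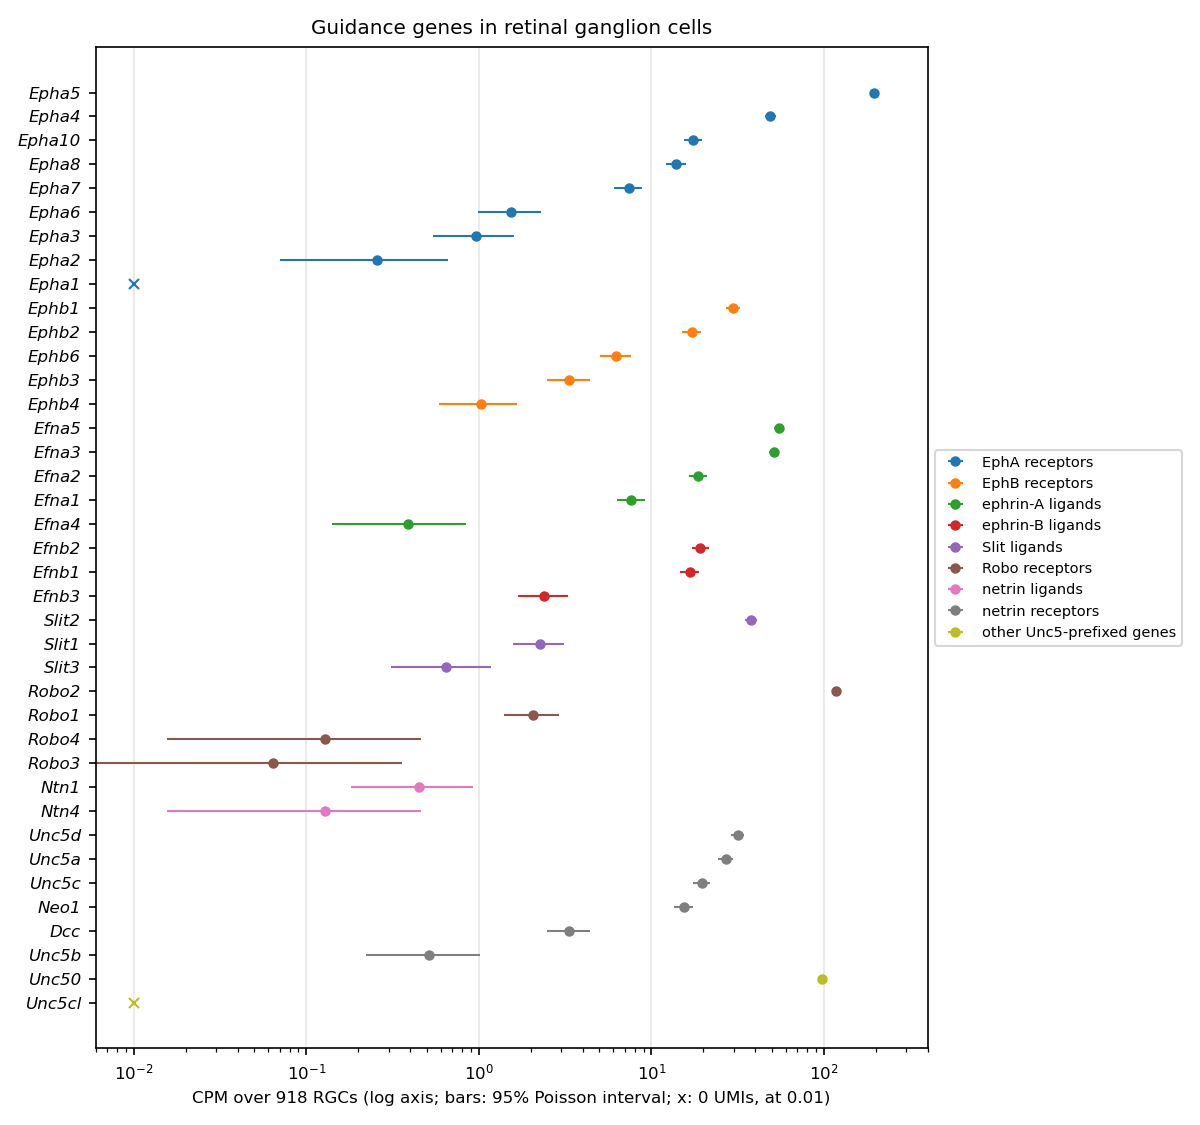
Level of each of the 39 genes over the 918 RGCs in CPM, on a log axis, with 95% Poisson intervals (counting error) and colours by family; genes with 0 UMIs are crosses drawn at 0.01. Epha5 and Robo2 lie above 100 CPM, and both netrin ligands lie below 1 CPM.

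Epha5 (chr5:84054761-84417382, minus strand) is a receptor known for its part in the nasal-temporal map of RGC axons. Its 3019 UMIs were spread over 800 of 918 RGCs, and no cell held more than 0.431% of them. After each cell was thinned to 12500 UMIs, which left 690 RGCs and set aside 228 shallower ones, Epha5 ranged from 0 through a median of 2 to 13 UMIs per cell. At this depth 81.9% of RGCs had an Epha5 UMI (78.8% to 84.7%), 33.2% had 3 to 5, and 0.725% had 10 or more. The plot of UMIs per cell showed no separate group of RGCs high in Epha5. It pools counts above 2, and counting noise is large at a median of 2 UMIs, so it could not show whether such a group exists. Among the RGC clusters described below, Epha5 ran from 96.4 to 381 CPM.

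**Figure D2:**
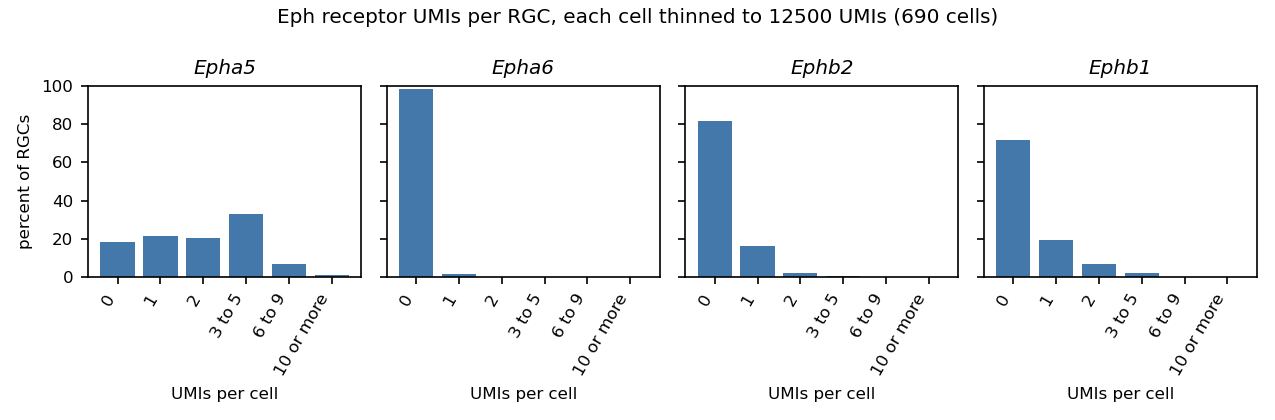
Percent of the 690 RGCs thinned to 12500 UMIs that held each number of UMIs of Epha5, Epha6, Ephb2 and Ephb1. Epha5 is spread over 0 to 5 UMIs, Ephb1 and Ephb2 lie mostly at 0 and 1, and Epha6 is at 0 in 98.4% of cells.

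Epha4, a receptor that binds ephrins of both classes, stood at 48.9 CPM (45.4 to 52.5) with 0 to 8 UMIs per RGC. Epha10, an EphA receptor without kinase activity, and Epha8 followed at 17.4 and 13.9 CPM, and Epha7 at 7.39 CPM. Epha6, Epha3 and Epha2 had 24, 15 and 4 UMIs in all. Epha6, another receptor of the nasal-temporal map, was therefore close to the limit of these data: 24 RGCs held 1 UMI each, and 11 of the 690 thinned RGCs (1.59%) kept it. Its level was 1.54 CPM in RGCs (0.989 to 2.30), 1.35 CPM in amacrine-like cells from 1 UMI, 1.08 CPM in bipolar-like cells from 2, 0.63 CPM in horizontal-like cells from 4, and 0 UMIs in Müller glia-like cells. At 3000 UMIs per cell, 3 RGCs (0.327%), 2 bipolar-like cells (0.524%) and 1 amacrine-like cell (0.752%) held a UMI. With so few UMIs, RGCs could not be told apart from amacrine-like or bipolar-like cells. The spread of Epha6 among RGCs was not measurable at this depth.

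Among EphB receptors, Ephb1 (chr9:101922128-102354693, minus strand) led at 29.8 CPM (27.2 to 32.7). Thinned RGCs held 0 to 4 Ephb1 UMIs with a median of 0, and 28.1% had at least 1 (24.8% to 31.6%). The tenth of cells with the most Ephb1 held 53.5% of its UMIs, against 27.3% for Epha5. Such a share depends on level, and the means were 0.390 UMIs per thinned cell for Ephb1 and 2.37 for Epha5. Unc5c, at a mean of 0.254 and with a variance over its mean of only 1.03, gave 53.1%. The shares therefore do not compare how uneven Ephb1 and Epha5 were. Ephb2 (chr4:136647539-136835988, minus strand), a receptor of the dorsal-ventral map, stood at 17.1 CPM (15.1 to 19.3), with 0 to 4 UMIs per thinned cell and 18.4% of cells with a UMI. The kinase-dead receptor Ephb6 was at 6.24 CPM and Ephb3 at 3.34 CPM, while Ephb4 had 16 UMIs in all.

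Ephrin-A ligands were as abundant as several receptors. Efna5 (chr17:62604184-62881317, minus strand), a repellent ligand for EphA receptors, was at 54.7 CPM (51.1 to 58.5), and Efna3 was at 51.4 CPM (47.9 to 55.1). These levels overlapped within counting error, and about as many RGCs held each, 481 and 485. Efna2 and Efna1 stood at 18.6 and 7.65 CPM, and Efna4 had 6 UMIs. The ephrin-B ligands Efnb2 (19.2 CPM, 17.1 to 21.5) and Efnb1 (16.7 CPM, 14.7 to 18.9) were close to each other, and Efnb3 had 37 UMIs. Summed over families, EphA receptors made 284 CPM, ephrin-A ligands 133, EphB receptors 57.5 and ephrin-B ligands 38.3 in the same RGCs, so receptors and ligands of both classes were present together.

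Slit2 (chr5:47983138-48307733, plus strand) was the main Slit ligand, at 37.9 CPM (34.9 to 41.0), with 0 to 15 UMIs per RGC. A Slit2 UMI was seen in 345 of 918 RGCs. Slit1 and Slit3 had 35 and 10 UMIs. Robo2 (chr16:73891839-74411825, minus strand), the receptor with the largest known part in RGC axon pathfinding, was in 730 of the 918 RGCs, with 0 to 12 UMIs per cell. Its 1820 UMIs compared with 32 for Robo1, 2 for Robo4 and 1 for Robo3, a receptor known from axons that cross the midline.

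The netrin ligands were nearly absent: Ntn1 had 7 UMIs and Ntn4 2 UMIs over all RGCs. Their receptors were present. Unc5d and Unc5a (chr13:54949411-55006018, plus strand), both repulsive receptors, were at 31.6 CPM (28.8 to 34.5) and 26.9 CPM (24.4 to 29.6). Unc5c stood at 19.7 CPM, Neo1, a Dcc relative that also binds repulsive guidance molecules, at 15.4 CPM, and Dcc, the attractive netrin receptor, at 3.34 CPM from 52 UMIs. Unc5b had 8 UMIs. Unc50, the prefix match that is no guidance receptor, was at 97.8 CPM and varied least between cells: its variance over its mean was 0.898 in thinned RGCs.

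Guidance genes varied between RGCs somewhat more than genes at large. Over the 21 members with 50 or more thinned UMIs, the median squared coefficient of variation beyond counting noise was 0.441, against 0.0758 over the 9836 genes that met the same minimum. The largest values were 2.27 for Unc5d, 1.78 for Efnb2, 1.70 for Epha7 and 1.07 for Slit2. The Epha7 value rests on 68 thinned UMIs, near the minimum, where Ephb6, with 58, was at -0.573. The median ratio of variance to mean was 1.15 in the members and 1.05 over all genes, and no member reached 2, as 324 genes did. Pairs of members had small correlations from cell to cell. Over 153 pairs of 18 members in the 690 thinned RGCs, Pearson's r had a median of 0.00893 and a range of -0.13 to 0.209, the last for Unc5d with Efna5. In counts this sparse, values of this size are no finding, and they do not exclude a relation.

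Across retinal classes, the members were sorted by the class in which each was highest, over 28 members with 50 or more UMIs and the 8 classes of 20 or more cells. RGCs were the highest class for 6 members (Dcc, Efna2, Efna3, Efna5, Robo2 and Unc5d), 21.4% of the 28, while 16.0% of the 12581 genes that met the same minimum were highest in RGCs. The share is near that background, and the count was 2 without the cell filter and 2 with a mitochondrial maximum of 5%. Only Efna5 was 2-fold or more above the next class, at 54.7 CPM in RGCs and 26.5 CPM in Müller glia-like cells (2.06-fold, 1.44 to 3.06). Robo2 stood at 117 CPM in RGCs, 85.9 in horizontal-like and 70.4 in bipolar-like cells. Unc5d stood at 31.6 CPM against 18.8 in bipolar-like cells (1.68-fold, 1.19 to 2.44). Within the bipolar-like cells, the Scgn cluster described below was at 47.6 CPM for Unc5d (18 UMIs) and 10.6 CPM for Dcc (4 UMIs). Both values lay above those of RGCs, from few UMIs. Dcc, Efna2 and Efna3 were level with the next class within counting error.

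**Figure D3:**
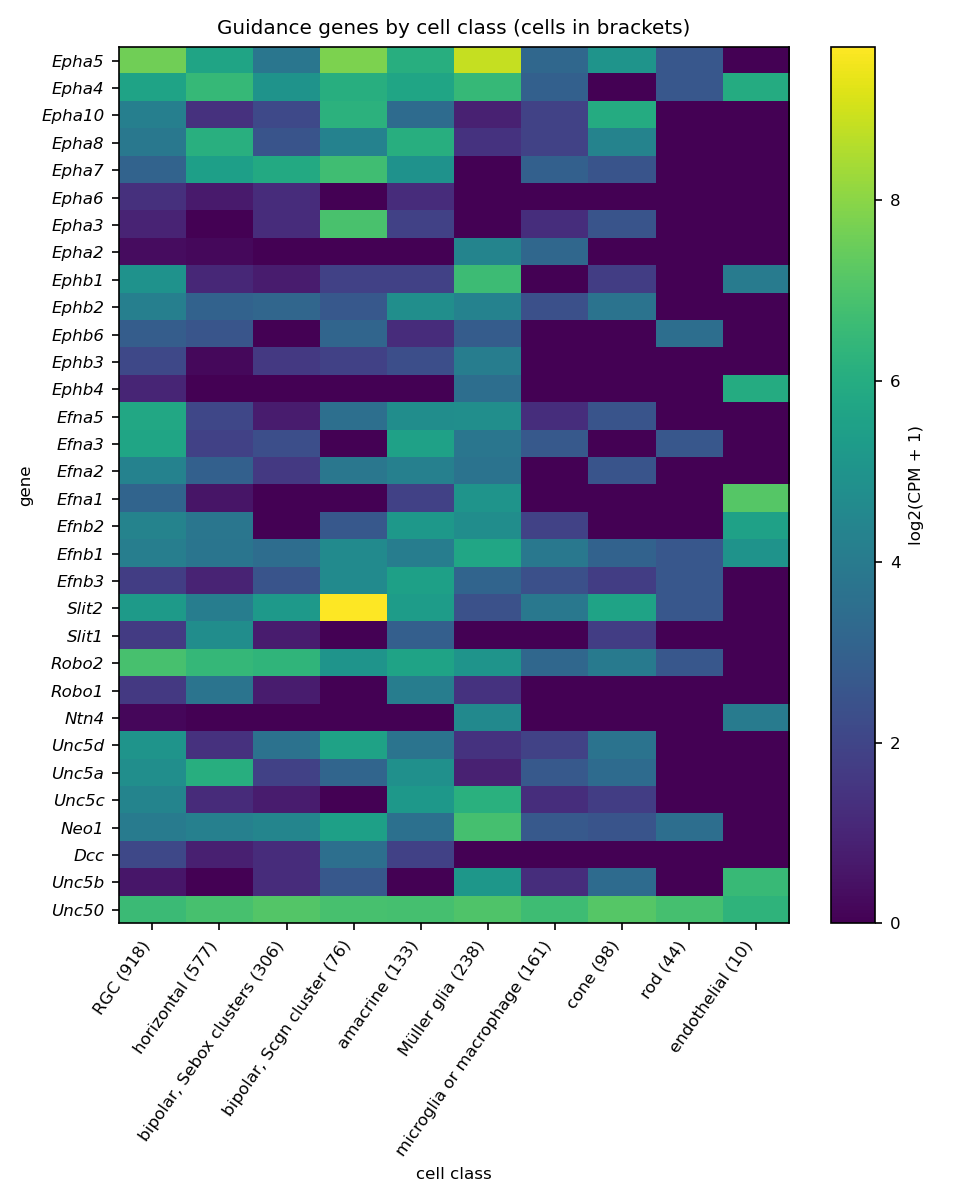
Level of the guidance genes with 20 or more UMIs over the classes, as log2(CPM + 1), in the 918 RGCs and in each other class (cells in brackets). Müller glia-like cells are brightest for Epha5, Ephb1 and Neo1, the Scgn cluster of bipolar-like cells for Slit2, and Robo2 is broad; columns with few cells rest on few UMIs.

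Müller glia, the radial glia of the retina, were the highest class for 9 of the 28 members (32.1%), while 13.6% of all genes were highest there. Of these, 8 were 2-fold or more above the next class. Epha5 reached 456 CPM in these 238 cells (418 to 496) against 194 in RGCs, 2.35-fold higher (2.14 to 2.58). At 3000 UMIs per cell, 71.4% of Müller glia-like cells and 44.3% of RGCs held an Epha5 UMI, against 1.24% of microglia-like cells. Ephb1 was at 100.1 CPM in Müller glia-like cells and 29.8 CPM in RGCs (3.35-fold, 2.72 to 4.12), and its share was 24.8% and 8.82% of cells at the shared depth, with 0 of 161 microglia-like cells, which allows up to 1.86%. The netrin receptors Neo1 (113 CPM), Unc5c (71.0 CPM) and Unc5b (34.2 CPM) and the ligands Efnb1 (53.0 CPM) and Efna1 (31.6 CPM) completed the set with Ephb3 (16.3 CPM). Epha4 was tied between Müller glia-like and horizontal-like cells, at 89.8 CPM in both. Ntn4, a netrin of basement membranes, had 27 of its 29 UMIs over these 8 classes in Müller glia-like cells.

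Epha5 was thus the most abundant Eph receptor of both RGCs and Müller glia-like cells. Slit2 and Robo2 were lower in the glia. Slit2 was at 4.28 CPM in Müller glia-like cells against 37.9 in RGCs (8.85-fold, 3.77 to 27.4), and Robo2 at 31.6 CPM against 117 (3.70-fold, 2.67 to 5.27).

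Horizontal cells, lateral interneurons of the outer retina, led for Slit1 (26.2 CPM) and Unc5a (66.6 CPM), the last at 26.9 CPM in RGCs. Epha8 was level between horizontal-like (68.2 CPM) and amacrine-like cells (67.5 CPM), at a ratio of 1.01 (0.752 to 1.38). Ephb1 was 27.0-fold lower in horizontal-like cells than in RGCs (13.0 to 67.7), from 7 UMIs in 577 cells. Efna5 was 17.4-fold lower there (11.2 to 28.6). Amacrine-like cells, inner retinal interneurons, led for Efnb2, Efnb3, Ephb2 and Robo1, of which only Efnb3 (44.6 CPM) was 2-fold above the next class. Of these 133 cells, 29 formed a cluster led by Ttr, Ptgds, Lamp5 and Rgr, with 2 amacrine markers among its 10 leading genes. Ttr and Rgr are listed markers of pigment epithelium, and the part of this cluster in the amacrine-like levels was not tested. Ephb2 was at 27.0 CPM in amacrine-like, 18.8 in Müller glia-like and 17.1 in RGCs, and these intervals overlapped. Cone-like cells led for Epha10 (62.3 CPM, 3.51-fold above the pooled bipolar-like class). Epha10 was at 74.0 CPM (28 UMIs) in the Scgn cluster of bipolar-like cells, described below, and 3.38 CPM (5 UMIs) in their other clusters. The Scgn value lay above that of cone-like cells, from few UMIs, so the fold holds only against the pooled class. Robo4, a receptor of vessel walls, had 8 UMIs in the 10 endothelial-like cells (124 CPM, 53.4 to 244).

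Slit2 separated the bipolar-like cells. Of their 382 cells, 76 formed a cluster led by Gsg1, Scgn, Cck and Grik1, genes of cone bipolar cells, and 306 formed clusters led by Trpm1, Sebox and Car8, genes of rod bipolar and ON bipolar cells. Trpm1 was also among the 10 leading genes of the Scgn cluster, as were Cabp5, Lrtm1 and Neurod4. Trpm1 is therefore not particular to the other clusters. In the Scgn cluster 49 of 76 cells held a Slit2 UMI, with a range of 0 to 21 and a median of 2. Its level was 830 CPM there (741 to 927) and 36.5 CPM (27.4 to 47.6) in the other clusters, 22.8-fold apart (17.0 to 31.0), while RGCs were at 37.9 CPM. Epha5 was at 222 and 12.8 CPM (17.3-fold, 10.4 to 30.2), and Epha4 at 66.1 and 30.4 CPM (2.17-fold, 1.28 to 3.62). Robo2 went the other way, at 31.7 and 80.3 CPM. Of 6 members with 50 UMIs over both groups, 3 were 2-fold higher and 1 was 2-fold lower in the Scgn cluster, where 5.21% and 4.99% of 5168 genes were. Epha3 had 45 of its 47 bipolar UMIs in the Scgn cluster. The clusters were made without the guidance genes, and their median depths were 4629.5 and 4282.5 UMIs.

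Within RGCs, 3 kinds were set apart by marker UMIs: 63 cells with 3 or more UMIs of Opn4 (melanopsin, the photopigment of intrinsically photosensitive RGCs), 32 with 3 or more of Spp1 (osteopontin, a marker of alpha RGCs) and 96 with 2 or more of the transcription factor gene Foxp2. They were compared with the 751 RGCs that met none of these rules. The Opn4 and Spp1 cells overlapped by 24, so their results are not separate, and all 3 comparisons share the same 751 cells. A gate on UMIs favours deep cells: median depths were 18005, 26504 and 15406.5 UMIs, against 15746 in the 751. A member was counted as higher or lower at 2-fold, with 50 or more UMIs over both groups.

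Opn4 cells had more Unc5a and Unc5d and less Slit2, Ephb1 and Robo2. Unc5a ranged from 0 through a median of 1 to 7 UMIs in Opn4 cells and from 0 through 0 to 4 in the 751. Its level was 71.9 CPM (57.8 to 88.4) against 23.3 (20.7 to 26.2), 3.08-fold higher (2.41 to 3.92). Unc5d ranged from 0 through 1 to 8 UMIs against 0 through 0 to 11, with levels of 67.1 and 29.2 CPM (2.30-fold, 1.79 to 2.92). Both are repulsive netrin receptors, and these were the 2 of 21 members counted as higher, where 3.25% of 10794 genes were. Unc5c, of the same family, was at 28.0 and 17.8 CPM (1.57-fold, 1.07 to 2.25), a ratio of 1.03 in thinned counts. With it, 3 of 21 members were 1.5-fold higher, where 8.86% of genes were. In the 39 Opn4 cells without Spp1, the Unc5a ratio was 2.00. Among the RGC clusters described below, the 27 cells led by Cdkn1c, Cd24a and Opn4 were near the 751 for both genes. Unc5a was at 22.3 CPM there (10.2 to 42.2) and Unc5d at 24.7 CPM (11.9 to 45.5).

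In Opn4 cells, 6 of the 21 members were 2-fold lower, where 6.86% of genes were. Slit2 ranged from 0 through 0 to 2 UMIs in Opn4 cells and from 0 through 0 to 15 in the others. It was found in 7 of 63 Opn4 cells (11.1%) and in 42.6% of the 751, and its level was 6.39 CPM against 44.7, 6.99-fold lower (3.52 to 16.3). Ephb1 was at 9.59 and 33.0 CPM (3.45-fold lower, 1.95 to 6.72), and Robo2 at 47.2 and 123 CPM (2.61-fold lower, 2.02 to 3.45). Robo2 ranged from 0 through 1 to 5 UMIs in Opn4 cells and from 0 through 2 to 12 in the others. Efna1 (2 UMIs in Opn4 cells), Efnb2 (2.13-fold) and Epha4 (2.13-fold) were the other 3. At 1.5-fold the count was 9, where 14.6% of genes were lower: Epha5, Efna3 and Epha8 were 1.61-, 1.72- and 1.61-fold lower, and for Epha8 the interval included no difference. The median ratio of the 21 members was 0.784, against 0.976 over all genes. The ligands Efnb3 and Slit3 fell short of 50 UMIs: Efnb3 had 19 UMIs in 13 of 63 Opn4 cells and 17 in the 751 (11.1-fold, 5.48 to 22.8), and Slit3 had 6 and 4.

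Spp1 cells resembled Opn4 cells in part, as the 24 shared cells require. Unc5a ranged from 0 through 2 to 7 UMIs and stood at 79.6 CPM, 3.41-fold above the 751 (2.59 to 4.44), and it was the only 1 of 21 members counted as higher, where 2.79% of 10724 genes were. At 1.5-fold, where 8.23% of genes were higher, no other member was added. Another 4 members were lower, where 7.23% of genes were: Slit2 (9.10 CPM, 4.91-fold), Ephb2 (6.82 CPM, 2.50-fold), Ephb1 (14.8 CPM, 2.24-fold) and Robo2 (60.3 CPM, 2.05-fold). At 1.5-fold, where 15% of genes were lower, Epha4, Efna1, Efna2 and Ephb6 were added, at 1.72-, 1.78-, 1.64- and 1.65-fold lower, and the intervals of the last 3 included no difference. The median ratio of the members was 0.796, against 0.974 over all genes.

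The 24 cells that met both rules carried the highest Unc5a level, 96.7 CPM (74.0 to 124), against 46.8 CPM (31.3 to 67.1) in the 39 Opn4 cells without Spp1 and 36.2 CPM (16.6 to 68.7) in the 8 Spp1 cells without Opn4. Slit2 was at 3.17 CPM in the 24 cells from 2 UMIs, at 9.67 CPM in the 39 and at 24.1 CPM in the 8. Efnb3 was split the opposite way, with 18 of the 19 UMIs in Opn4 cells without Spp1. In the 8 cells, which are too few to describe alone, Robo2 was at 113 CPM and Ephb1 at 36.2 CPM, close to the 751.

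Foxp2 cells had less Slit2 and Efnb2 and more Ephb6. Slit2 ranged from 0 through 0 to 3 UMIs in the 96 cells and stood at 11.3 CPM, 3.94-fold below the 751 (2.47 to 6.70). Efnb2 was at 9.44 and 20.5 CPM (2.17-fold lower, 1.29 to 3.93). These were the 2 of 22 members counted as lower, where 4.59% of 10817 genes were. Ephb6 alone was counted as higher, at 12.6 and 5.61 CPM (2.24-fold, 1.29 to 3.73), where 1.01% of genes were. Unc5c was 1.73-fold higher (1.25 to 2.37) and Ephb1 1.69-fold lower (1.17 to 2.52). With Epha7 (1.59-fold, 0.900 to 2.66), 3 members were 1.5-fold higher and 3 lower, where 4.64% and 10.4% of genes were. Robo2 did not differ beyond counting error, at 123 CPM in both (ratio 1.00, 0.858 to 1.16), and Epha5 was at 235 and 198 CPM (1.19-fold, 1.06 to 1.33). The median ratio of the members was 1.04, against 0.989 over all genes.

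**Figure D4:**
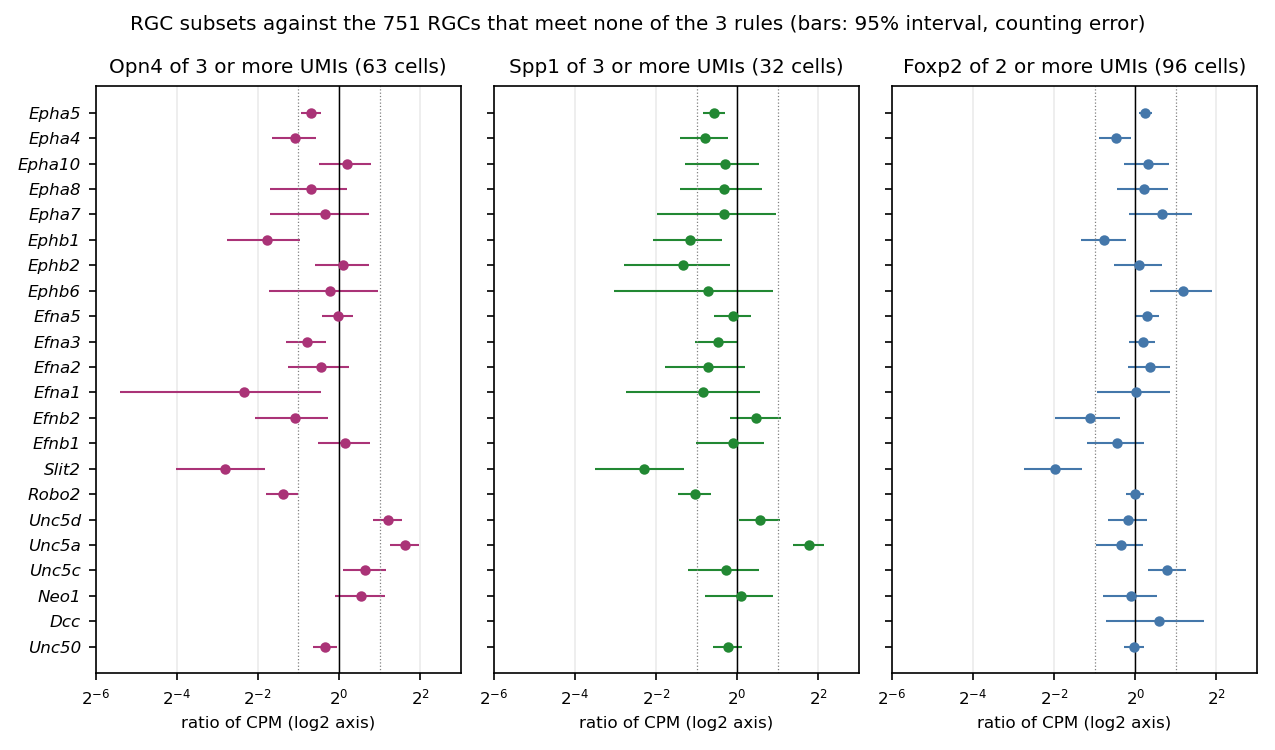
Ratio of CPM in Opn4, Spp1 and Foxp2 cells over the 751 RGCs that met none of the rules, on a log2 axis, for members with 50 or more UMIs over both groups; bars are 95% intervals for counting error and dotted lines mark 2-fold. Slit2 lies left of the lower line in all 3 panels, and Unc5a lies right of the upper line in the Opn4 and Spp1 panels.

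Slit2 was thus the member counted as lower in all 3 kinds, but the comparisons share their 751 cells, among which Slit2 was seen in 42.6%. A list of 47 signalling partners and effectors of these receptors was read the same way, with 43 tested in each comparison. In Opn4 cells 3 were higher and 2 lower, in Spp1 cells 1 and 3, and in Foxp2 cells 0 and 4. Over all genes the shares higher and lower were 3.25% and 6.86%, 2.79% and 7.23%, and 1.01% and 4.59%, so counts this small say little of the list as a whole, and the genes that follow are given as single values. Ngef, the guanine exchange factor ephexin downstream of EphA receptors, was 3.05-fold higher in Opn4 cells (2.24 to 4.10) and 3.38-fold higher in Spp1 cells (2.39 to 4.68). Adam10, a protease that cleaves ephrins and their receptors, was 2.03-fold higher in Opn4 cells. The Rac regulator Chn2 was lower in all 3 kinds, by 2.60-, 3.65- and 2.40-fold, and the adaptor Nck2 was lower in Opn4 and Spp1 cells, by 2.62- and 2.07-fold. Flrt3, a Robo partner, had 1 UMI in Spp1 cells and stood at 19.2 CPM in the 751. In Foxp2 cells Vav3 and Rgma were 2.26- and 2.06-fold lower.

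The 918 RGCs were also split into 24 clusters made without the guidance genes, of which 22 held 20 or more cells. These are named by leading genes and are not held to be cell types. For the 23 members with 50 or more UMIs, the peak cluster stood at a median of 2.79 times the average of the remaining clusters, against 1.81 over 11026 genes. Of the 23, 4 (17.4%) reached 4-fold, as did 6.47% of all genes: Unc5d, Unc5a, Efnb2 and Dcc.

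Unc5d was at 143 CPM (106 to 190) in a cluster of 26 cells led by Gm11100, D930028M14Rik and Tbx20, with 0 to 8 UMIs per cell and a median of 1.5. It was at 114 CPM in the cluster led by Spp1 and Ctxn3, at 111 CPM in that led by Irx1 and at 85.3 CPM in that led by Lmo2, and had 0 UMIs in the 30 cells led by Trhr. Unc5a peaked in the Spp1 cluster of 58 cells, at 93.7 CPM (76.3 to 114), with 0 to 7 UMIs, and was also high with Lmo2 (67.5 CPM) and Irx1 (62.2 CPM). The median cluster was at 17.1 CPM for Unc5d and 19.3 CPM for Unc5a. Efnb2 peaked at 78.1 CPM in the cluster led by Npy, 21.4% of it from 1 cell, and Dcc at 17.8 CPM in the Trhr cluster from 11 UMIs.

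Slit2 ranged from 114 CPM (91.5 to 141) in 48 cells led by Tnfrsf11b, Coch and Cartpt, of which 83.3% held a UMI, with up to 6 per cell, to 0 UMIs in the 27 cells led by Cdkn1c, Cd24a and Opn4. At 3 counts, that 0 allows up to 7.42 CPM. The Foxp2-led cluster held 6.70 CPM of Slit2 and the Prdm8-led cluster 5.15 CPM. Robo2 was highest in the same Tnfrsf11b cluster, at 184 CPM (155 to 217), and lowest in the Spp1 and Opn4 clusters, at 46.4 and 47.0 CPM.

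**Figure D5:**
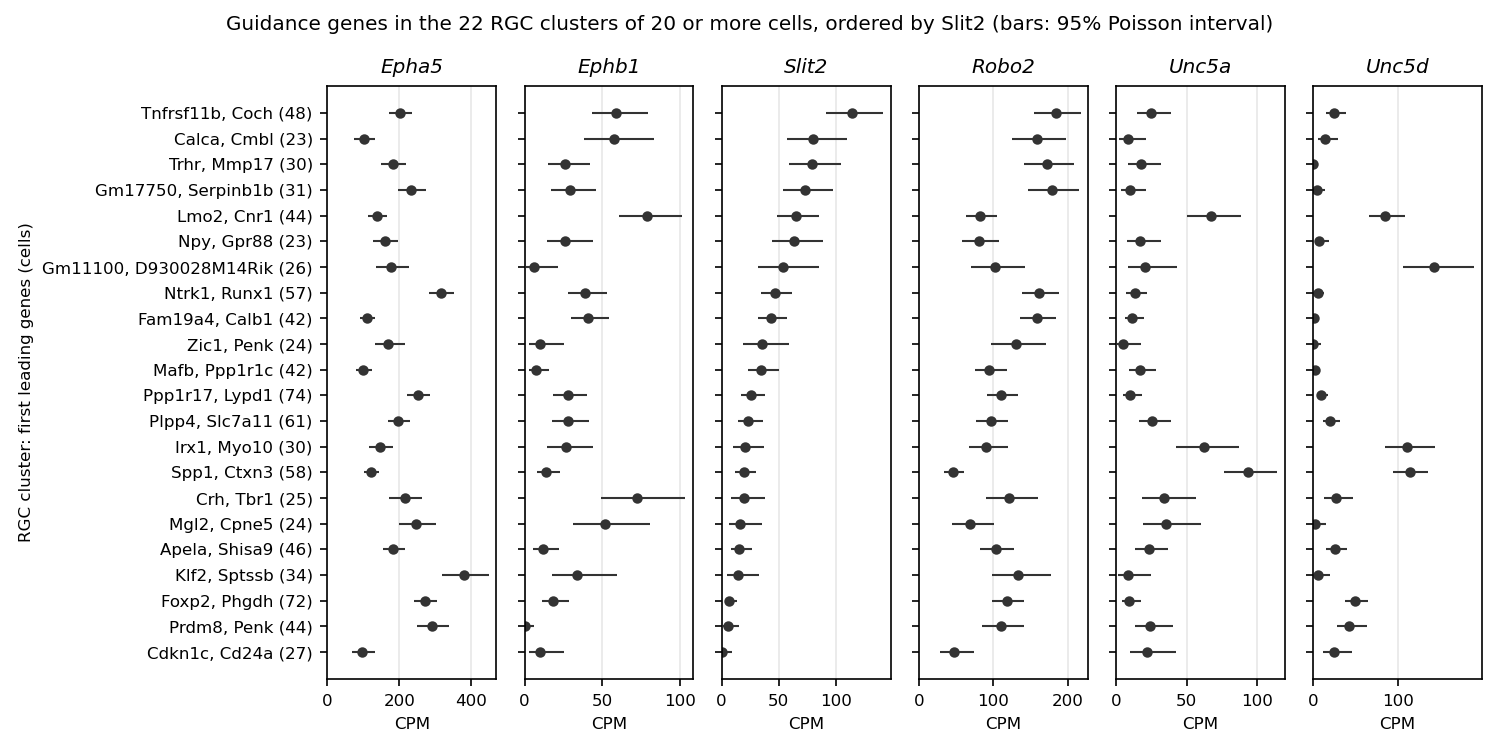
Level in CPM of 6 guidance genes in the 22 RGC clusters of 20 or more cells, ordered by Slit2, with 95% Poisson intervals; clusters are named by their first 2 leading genes and number of cells. Slit2 runs from 114 CPM to 0 UMIs, and Unc5a and Unc5d stand out in the Spp1, Lmo2 and Irx1 clusters.

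Ephb1 ran from 79.0 CPM (60.6 to 101) in the 44 cells led by Lmo2, Cnr1 and Irx3, with 0 to 8 UMIs and 65.9% of cells, to 0 UMIs in the 44 cells led by Prdm8 and Penk, which allows up to 5.15 CPM. Ephb2 was highest in the same Lmo2 cluster, at 45.9 CPM (32.1 to 63.5), and lowest with Prdm8, at 3.44 CPM. Epha5 ran the other way in these clusters, at 138 CPM with Lmo2 and 290 CPM with Prdm8. These clusters were picked as extremes of Ephb1 and Ephb2. Over all 22 clusters, Pearson's r of Epha5 was 0.02 with Ephb1 (Spearman's rho 0.15) and -0.23 with Ephb2 (rho -0.25). Epha5 peaked at 381 CPM (320 to 451) in 34 cells led by Klf2 and Sptssb and was lowest in the Opn4 cluster, at 96.4 CPM (68.6 to 132), a 3.95-fold range. Among ligands, Efna3 ranged from 87.8 CPM in the Ppp1r17 cluster to 6.49 CPM in the Gm17750 cluster, and Efna5 from 87.1 CPM in the Foxp2 cluster to 24.3 CPM in the Gm17750 cluster.

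Over the 22 clusters, levels of 17 members were set against each other in 136 pairs, as a description with no test. By Pearson's r the highest were Unc5c with Unc5d (r 0.72, Spearman's rho 0.73), Unc5d with Unc5a (0.68 and 0.55), Slit2 with its receptor Robo2 (0.62 and 0.47) and the ligands Efnb1 with Efna2 (0.62 and 0.66). By rho, Efnb1 with Efna2 came second and Slit2 with Robo2 fell behind other pairs, such as Epha4 with Ephb1 (0.43 and 0.54). The lowest by r were Unc5a with Robo2 (-0.56 and -0.56), Neo1 with Robo2 (-0.47 and -0.45) and Ephb1 with Efna5 (-0.45 and -0.49). The clusters come from the same libraries and differ in depth and number of cells.

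To see what varied with Epha5, Epha6, Ephb2 and Ephb1 among RGCs, Pearson's r of log(1 + UMIs) was taken over the 690 thinned RGCs with each of 8878 genes that had a UMI in 10% or more of cells (8879 for Epha6). No value passed 0.25 in size except Pcp4 with Epha5. The genes named here were picked as the extremes of these many values. Epha5 went most with Calb2 (0.24), Ppp1r17 (0.24) and Lmo1 (0.23) and least with Pcp4 (-0.26), Clstn2 (-0.21) and Gnai1 (-0.21). Ephb1 went with Mgarp, Sv2c and Rgs6 (all 0.22) and against Kcnip4 (-0.21), Tubb2a (-0.19) and Calm2 (-0.18). For Ephb2 the extremes were Slc22a15 (0.16), Nmnat2 (0.14), Smarca4 (0.14), Psma7 (-0.15), Glrx3 (-0.15) and Ndufs8 (-0.14), and for Epha6, at 11 cells, Eomes (0.20), Ctxn1 (0.20), Vat1l (0.18), Sf3b2 (-0.13), Kctd8 (-0.12) and Gsr (-0.12). Of these 24 genes, 2 were the same at 6000 UMIs per cell, and 9 in the 751 RGCs of no marker kind.

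RGCs high in a receptor were set against RGCs low in it, without using that gene: 179 cells with 4 or more thinned Epha5 UMIs against 271 with at most 1, 194 with an Ephb1 UMI against 496 without, and 127 with an Ephb2 UMI against 563 without. No other member differed 2-fold with Epha5, where 0.324% of genes were higher and 0.435% lower, or with Ephb2 (0.345% and 0.709%). With Ephb1, Ephb6 alone was lower, where 0.140% of genes were higher and 0.709% lower. For Epha6 the high group was 11 cells: Unc5d, Unc5a, Neo1, Ephb6 and Epha7 were higher and Epha10 lower, where 5.02% of genes were higher and 12.3% lower. The intervals of Epha7 (5 UMIs in the 11 cells) and Epha10 (1 UMI) included no difference. Of the same cells, 36.4% met the Opn4 rule against 7.22% of the rest.

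Since Eph gradients are known from retinal position, 18 genes with dorsal-ventral or nasal-temporal patterns in the developing retina were read in the same splits. Only 5 had 50 or more UMIs in RGCs: Vax2, a ventral homeobox factor, at 114 CPM, Nr2f1 at 41.5, Tbx2, a dorsal T-box factor, at 21.3, Nr2f2 at 20.1 and Hmx1 at 11.9 CPM. Nr2f1 was at 28.4 CPM in RGCs high in Epha5 and 44.3 in those low in it (ratio 0.64, 0.498 to 0.818). Tbx2 was at 27.7 CPM with Ephb1 and 18.5 without (1.5-fold, 1.16 to 1.93), and Vax2 at 91.0 CPM with Ephb2 and 112 without (ratio 0.81, 0.697 to 0.937). Of the other 12 ratios for Epha5, Ephb1 and Ephb2, the intervals all included 1. In the 11 cells with an Epha6 UMI, Hmx1 was at 37.0 CPM from 9 UMIs and at 11.5 CPM in the rest (3.21-fold, 1.44 to 6.26), and the intervals of the other 4 genes included 1. No cell's position in the retina was recorded, so a relation of these receptors to position could not be read directly.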

How the data were processed

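Whole-number UMI counts per gene and cell, deposited by the authors as 1 matrix for all 4 retinas, were the only values used. Cell Ranger, Seurat 2.2 and the build mm10 are named in the submitters' processing notes; the sources used here do not give what each did or the Cell Ranger version. All columns were mapped, to 1 pooled sample.

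Cells with at least 500 genes and at most 10% mitochondrial UMIs were kept, and 63 barcodes called as doublets by Scrublet in scanpy 1.11.5 were removed. Counts were scaled to 10000 per cell, and 2000 variable genes without the guidance members, 30 principal components, 15 neighbours and Leiden resolution 1 (seed 0) gave the clusters. A cluster was called by a class, as "-like", from its marker list. Levels are summed UMIs per 1000000 (CPM) with exact Poisson intervals, ratios have exact conditional binomial intervals, and shares have exact binomial intervals. For shares and spread, cells were thinned to 12500 UMIs (RGCs) or 3000 (all classes). A comparison used genes with 50 or more UMIs over both groups and a 2-fold difference. The calculations were tested on simulated data. Named genes were the members, pathway genes past 2-fold with 100 or more UMIs, and the 3 genes of highest and of lowest r for each of 4 receptors. The members and lists were chosen with earlier results of these data known. Python 3.11.15, numpy 2.4.6, scipy 1.17.1 and pandas 2.3.3 were used.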

Additional observations from a re-analysis of the deposited data

Results flagged for a closer look

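Key receptors also gave signal in barcodes that the comparisons did not use. Of the barcodes that met the RGC rule, 32 were removed by the filters, most of them as doublet calls. In these 32, Epha5 was at 177 CPM (143 to 216), Ephb2 at 18.6 CPM (8.93 to 34.2) and Ephb1 at 27.9 CPM (15.6 to 46.1). All 3 lay above the 5.58 CPM that 3 counts make there. In the 75 cells of RGC-like clusters that did not meet the rule, with a median of 9099 UMIs, Epha5 was at 222 CPM (189 to 260), Ephb2 at 16.8 CPM (8.67 to 29.3) and Ephb1 at 26.6 CPM (16.0 to 41.5), above 4.20 CPM. All 6 intervals lay beside or across the levels of the 918 RGCs, which were 194, 17.1 and 29.8 CPM.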

How the results depend on the processing

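With no replicates, the limits are those of 1 pooled sample: intervals cover counting error only, and the spread between retinas is not known. No paired analysis was possible because no barcode is tied to a retina, and leaving out a retina could not be run for the same reason. The number of RGCs was 950 without the cell filter, 733 with a mitochondrial maximum of 5%, 948 with doublets kept, 990 by RGC-like clusters, 855 by a stricter rule and 915 without RGCs in clusters of other classes, an alternative chosen after seeing the data. Of the alternative values for the main comparisons, 64 stayed within the limits set for no change and 17 moved; of those for single genes, 289 stayed, 18 moved and 2 reversed.

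Thinned to 6000 UMIs, the shares of RGCs with a UMI were 67.3% for Epha5, 0.673% for Epha6, 9.42% for Ephb2 and 16.1% for Ephb1, since fewer UMIs are kept per cell. With a minimum of 20 UMIs, 4 members were higher in Opn4 and 2 in Spp1 cells. With no minimum, 6 were higher and 13 lower in Opn4, 4 higher and 12 lower in Spp1, and 13 lower in Foxp2 cells. At 1.5-fold, 8 were lower in Spp1 and 3 higher in Foxp2 cells. The count highest in RGCs was 2 without the cell filter (Robo2 and Unc5d, over 9 classes) and 2 with the 5% maximum (Efna3 and Efna5, over 6 classes), and the cause was not tested. Of the 24 genes that went most with or against the 4 receptors, 2 were shared at 6000 UMIs and 9 in RGCs of no marker kind, and the cause was not tested. In the 8 Spp1 cells without Opn4, the ratio over other RGCs reversed to 1.49 for Efna1 and 1.10 for Ephb1; the cause was not tested.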
